A study of Mus musculus with 10 samples.

Results

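Tmem119, Fcrls, Olfml3, Sparc, Slc2a5, Gpr34, Selplg, Crybb1 and Ltc4s are 9 genes used as markers of resting microglia. Not all are particular to these cells, since other leukocytes make Selplg, and astrocytes and endothelial cells make Sparc. They were taken as a list of symbols, all 9 were found among the 46152 genes counted, and none was dropped, since each had counts in every library. Microglia, the resident macrophages of the brain, depend on signaling through CSF1R, the receptor for CSF1 and IL-34. In the healthy brain they hold a homeostatic program of gene expression that is kept up by TGF-beta and by the transcription factor PU.1, and much of which is lost when microglia become activated or are placed in culture. Most of the genes encode proteins of the cell surface or proteins that are secreted, so they serve as antibody targets and as readouts of that program. The list is not uniform in this respect, as Crybb1 encodes a lens crystallin and Ltc4s an enzyme of intracellular membranes.

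The microglia came from the brains of healthy, young adult C57BL/6J mice with no transgene. In the GW2580 group, 5 mice were gavaged with this inhibitor of the CSF1R kinase at 80 mg/kg/d for 8 days, and 5 mice received the vehicle, 0.1% Tween 80 with 0.5% hydroxymethyl propyl-cellulose, which the treated mice received too. Each group held 2 males (replicates 1 and 2) and 3 females (replicates 3 to 5), and each mouse gave 1 library of RNA from cells that had been digested with Accutase, banded on Percoll and selected with beads for CD11b, a surface protein shared by microglia, monocytes, granulocytes and border macrophages. The comparison asks how these markers respond to inhibition of the receptor on which the cells depend.

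Between 12550418 and 26079343 fragments were assigned to genes in each library, and the values below are CPM, counts scaled to the size of each library, corrected by TMM factors (trimmed mean of M-values) that ran from 0.691 in GW2580 3 to 1.61 in GW2580 4. The levels of Xist and Ddx3y matched the labelled sex in 10 of 10 libraries. Several libraries stood apart before any marker was tested. Over 28419 genes, vehicle 5 correlated with the mean of the other vehicle libraries at r = 0.843 and with the mean of the GW2580 libraries at r = 0.857, and GW2580 5 correlated with its own group at r = 0.910 and with vehicle at r = 0.958, while the other 8 libraries lay nearer their own group. These r values are across genes of the same libraries and carry no test. Both libraries are from females, so the sex check does not separate them. Whether these 2 libraries were exchanged was not tested, their labels were kept, and an exchange would bear on every difference between groups given below. Markers of choroid plexus and ependyma summed to 28000 CPM in vehicle 5, and oligodendrocyte markers to 18000 CPM in vehicle 2. Differences between groups are therefore also given without such libraries. In bulk RNA, fewer microglia and less RNA of a marker per microglial cell cannot be told apart.

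The promoter windows show what lies just upstream of these genes. RefSeq promoter sequences of GRCm38.p6 were at hand for 6 of the 9 genes, Fcrls, Olfml3, Sparc, Slc2a5, Crybb1 and Ltc4s, and the 250 bases before each start were searched on both strands. The window of Olfml3 (chr3:103738002-103738251, minus strand) overlaps no annotated exon of any gene and is given whole, with capitals on its matches to the SP1 motif GGGCGG, read as CCGCCC on this strand.

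Olfml3: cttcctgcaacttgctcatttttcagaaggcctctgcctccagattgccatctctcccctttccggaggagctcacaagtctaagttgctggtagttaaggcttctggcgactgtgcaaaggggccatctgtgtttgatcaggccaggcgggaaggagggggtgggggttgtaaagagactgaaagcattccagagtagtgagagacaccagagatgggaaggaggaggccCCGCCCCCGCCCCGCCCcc

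These matches begin 19, 13 and 8 bases before the start, so that the last 2 share a base. The SP1 motif was also in the Slc2a5 window and is in 32.9% of all 27025 promoters of the table. From the windows that overlap exons, 30-base stretches are given, because they hold the letters of the ETS motif GAGGAA, which PU.1 and other ETS factors bind, or of the SMAD motif. The latter is CAGACA. The Sparc and Slc2a5 windows lie just upstream of the gene spans given below, so the annotated exons they overlap reach beyond those spans. Capitals mark the match, which reads TGTCTG where it lies on the other strand.

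Fcrls, ETS, chr3:87263651-87263680, minus strand: caagtctgtaaaGAGGAAggacgtttgctt
Sparc, SMAD, chr11:55420099-55420128, minus strand: ccctgaccctcaTGTCTGtttaggcaggag
Slc2a5, SMAD, chr4:150119111-150119140, plus strand: agcccagaggacCAGACAgaatcgccagct
Crybb1, SMAD, chr5:112255766-112255795, plus strand: tatagaccctgaTGTCTGccaggctataaa

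The SMAD letters were in 4 of the 6 windows (Fcrls, Sparc, Slc2a5 and Crybb1) and in 17.1% of all promoters. The ETS letters were in the Fcrls window alone, 144 bases before the start, and in 23.1% of all promoters. The letters TATAAA of a TATA box were in the windows of Fcrls and Crybb1, 30 bases before the start in Crybb1, and in 13% of all promoters. The letters of AP-1 (TGANTCA), C/EBP (TTGCNNAA), IRF (GAAA, any 2 bases, GAAA) and MEF2 (CTA, any 4 bases, TAG) were in 0 of the 6 windows, and in 6.87%, 9.55%, 3.04% and 3.23% of all promoters. The Ltc4s window held none of the motifs searched. Counts of CpG ranged from 1 in Crybb1 to 15 in Slc2a5, against a median of 6 over all promoters. The start used for Crybb1 lies inside the span of the gene, as does that for Fcrls, whose window (chr3:87263525-87263774) lies almost wholly within it, and a match of letters is a description of the window and not of a bound site.

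On the genome, Tmem119 (chr5:113793729-113800396) and Selplg (chr5:113817798-113832528) are neighbouring protein-coding genes with 17402 bases between them. Crybb1 (chr5:112254563-112269585) lies on the same chromosome and overlaps Cryba4, another crystallin gene. Fcrls (chr3:87250736-87263765) and Olfml3 (chr3:103735394-103738001) are on chromosome 3, and Sparc (chr11:55394159-55420080) and Ltc4s (chr11:50236461-50238532) on chromosome 11. Slc2a5 (chr4:150119344-150144168) lies beside Slc2a7, and Gpr34 (chrX:13622650-13640859) lies within the span of Cask. Fragments were counted without regard to strand, so reads from genes that overlap cannot be told apart by strand.

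Together the 9 genes took 1.92 ± 0.687% of the assigned fragments in the vehicle group and 2.30 ± 0.428% in the GW2580 group (SD, n = 5 each). Vehicle 5 had the lowest share, 0.880% (Wilson 95% interval 0.8758 to 0.8838%, counting error only), and GW2580 3 the highest, 2.91%. The range with GW2580, 1.91 to 2.91%, overlapped that with vehicle, which began at 0.880%.

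Divided by gene length, the markers differed widely in level. In vehicle libraries Sparc was at 2547 ± 1176 CPM per kb, Selplg at 1889 ± 453, Ltc4s at 1421 ± 689, Tmem119 at 1406 ± 272.5 and Fcrls at 801 ± 200.1 (SD, n = 5). Crybb1 at 280 ± 169 CPM per kb, Olfml3 at 201 ± 62.1 and Gpr34 at 127 ± 50.3 followed, and Slc2a5 came last at 6.95 ± 2.17. By this level Sparc ranked 25 among the 28419 genes tested and Slc2a5 6672. The ranges of Sparc, Selplg, Ltc4s and Tmem119 overlapped, as did those of Crybb1, Olfml3 and Gpr34, and the Slc2a5 libraries lay below all others. Read within libraries, each gene was above the next in this order in 4 or 5 of 5 vehicle libraries, and Olfml3 was above Gpr34 in 5 of 5. With GW2580 the order was Selplg at 2680 ± 1576 CPM per kb, Tmem119 at 2400 ± 1524, Sparc at 1600 ± 796, Fcrls at 1124 ± 610 and Ltc4s at 1049 ± 1379 (SD, n = 5). Olfml3 at 265 ± 139, Crybb1 at 156 ± 113, Gpr34 at 139.6 ± 66.2 and Slc2a5 at 12.1 ± 7.44 CPM per kb came after them. The ranges of neighbours in this order overlapped, except that the Slc2a5 libraries again lay below those of Gpr34. Within libraries each gene was above the next in 4 or 5 of 5, except that Crybb1 was above Gpr34 in 2 of 5. Single libraries carried some of these means. The Selplg median was 4841 CPM with GW2580 and 5020 CPM with vehicle, with GW2580 3 at 14260 CPM, and the Ltc4s median was 424.9 CPM with GW2580 and 1102 CPM with vehicle, with GW2580 5 at 2291 CPM.

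**Figure D1:**
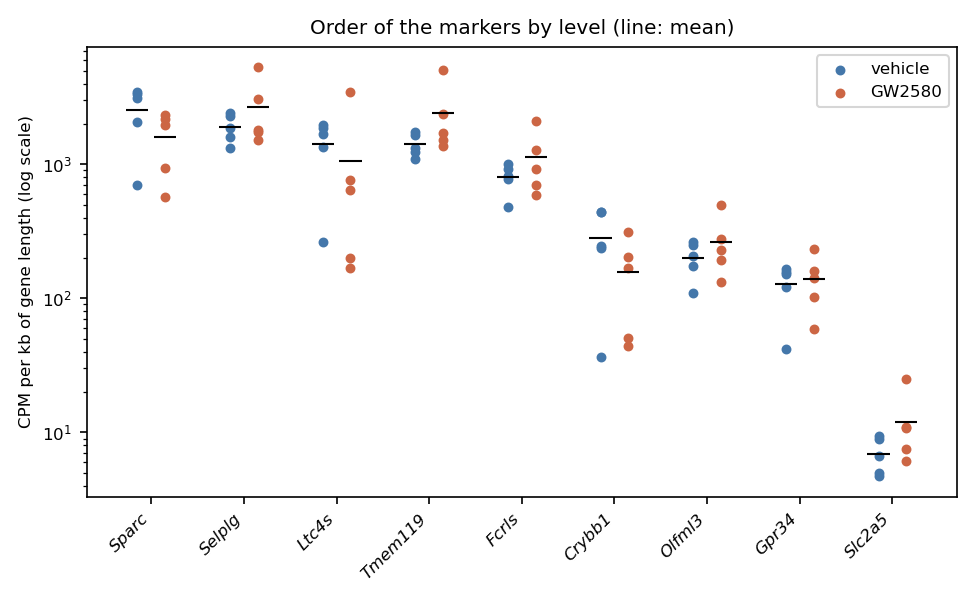
CPM per kb of gene length (log scale) of the 9 markers, ordered by their level with vehicle, with a point for each library and a line at the group mean (n = 5 per group). Sparc is highest with vehicle at 2547 CPM per kb and Selplg with GW2580 at 2680, and Slc2a5 is lowest in both groups.

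No marker was called in either direction. A call required a fold change over 2 and, by the quasi-likelihood test of edgeR, an unadjusted p under 0.05, and 4.01% of all tested genes were called higher with GW2580 and 6.70% lower. Of the 9 markers 0 were called higher, 0 lower, and 0 had an unadjusted p under 0.05 at any fold, against 14.7% of all genes. DESeq2 also called 0 of the 9, against 4.22% of all genes higher and 7.48% lower, and limma-voom 0 of the 9 against 4.95% and 5.66%. Neither gave a marker an unadjusted p under 0.05, which 16.8% of all genes had by DESeq2 and 14.7% by limma-voom. With Benjamini-Hochberg adjustment 0 genes of the whole table passed 0.05 by edgeR or limma-voom and 0.641% of genes by DESeq2, none of them a marker. The fold changes were positive for Tmem119, Fcrls, Olfml3, Slc2a5, Gpr34 and Selplg and negative for Sparc, Crybb1 and Ltc4s, with a median log2 fold change of 0.40 against -0.03 over all genes. In no marker were the groups free of overlap, which was the case for 3.03% of all genes. Without TMM factors the median over all genes was 0.23, so a level relative to the other genes depends on the scaling. Without these factors 4 GW2580 libraries exceeded every vehicle library for Tmem119 and Slc2a5, 3 for Fcrls, Olfml3 and Selplg and 2 for Gpr34, and with them 2 did for Tmem119, Fcrls, Olfml3 and Selplg, 3 for Slc2a5 and 1 for Gpr34.

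**Figure D2:**
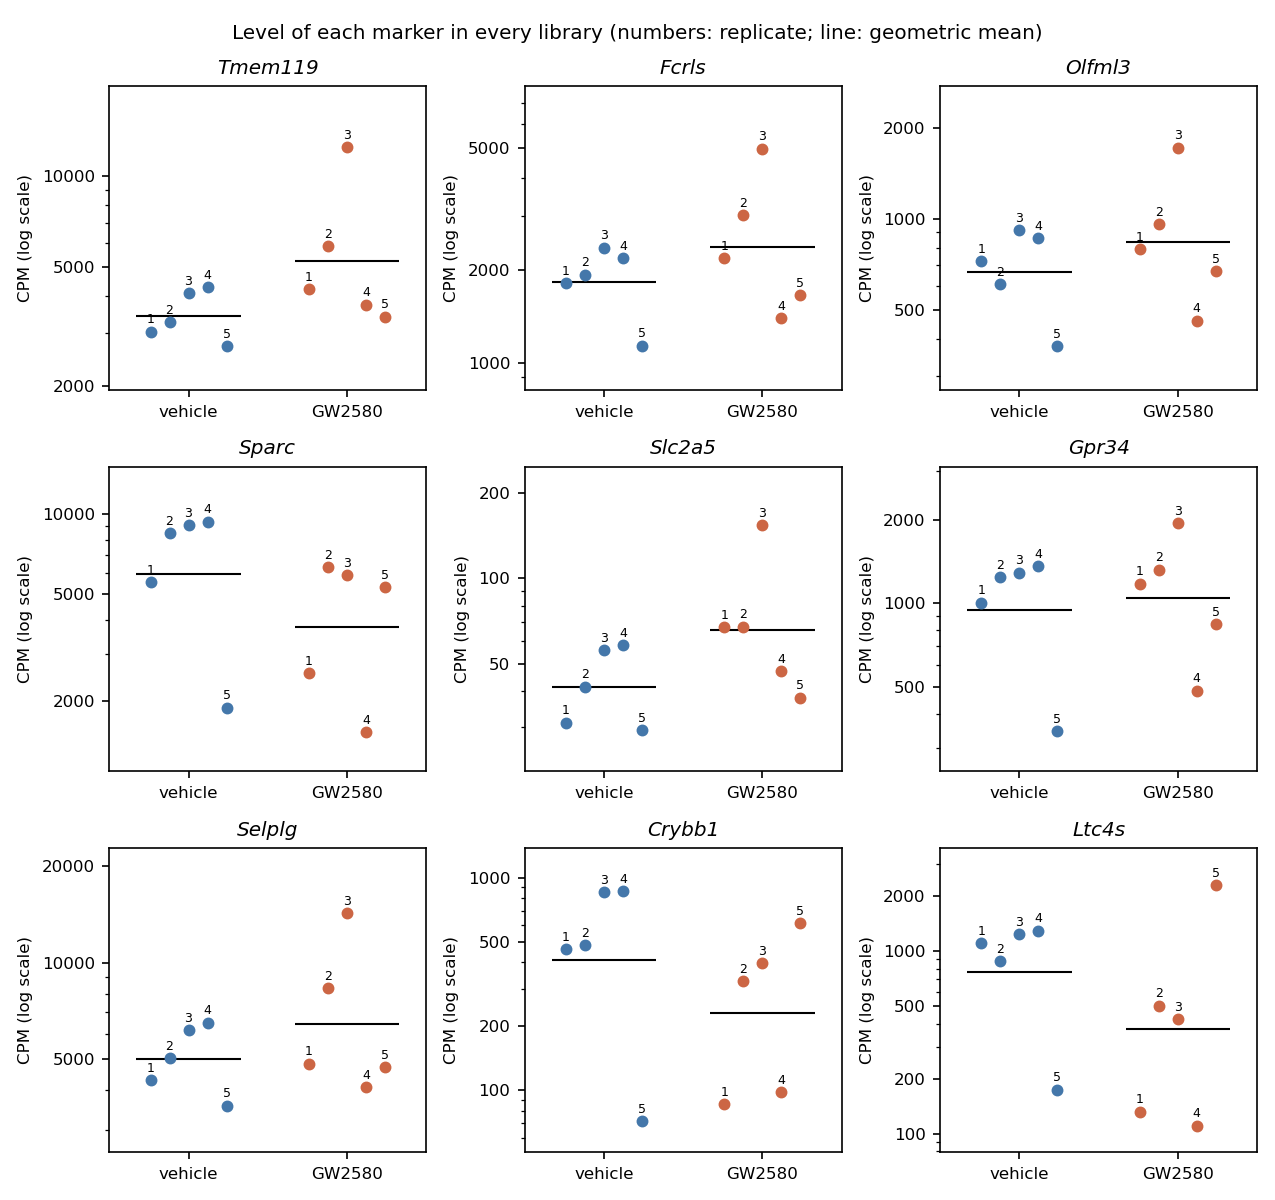
CPM of each marker (log scale) in the 5 vehicle and 5 GW2580 libraries, with points numbered by replicate and a line at the geometric mean of the group. Vehicle 5 is the lowest vehicle library in 9 of 9 panels, and GW2580 3 is the highest GW2580 library in 6 of 9.

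Tmem119, a single-pass transmembrane protein used widely to stain microglia, was at 3038, 3267, 4084, 4264 and 2710 CPM in vehicle 1 to 5 and at 4206, 5852, 12450, 3733 and 3403 CPM in GW2580 1 to 5. Only GW2580 2 and GW2580 3 lay above every vehicle library, and GW2580 3 had the highest level by far. The means were 3473 ± 673 and 5929 ± 3765 CPM (SD, n = 5 each), a log2 fold change of 0.77 ± 0.48 (SE, 95% interval -0.25 to 1.79.) By edgeR p was 0.127 (adjusted 0.452), and by the exact permutation test, two-sided, 0.103. Without GW2580 3 the log2 fold change was 0.31, and with scaling by library size alone it was 0.85 with an edgeR p of 0.0125 (adjusted 0.253).

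Selplg encodes P-selectin glycoprotein ligand 1, a mucin-like surface protein of leukocytes. It was at 4302, 5020, 6153, 6488 and 3575 CPM in vehicle 1 to 5 and at 4841, 8337, 14260, 4078 and 4713 CPM in GW2580 1 to 5. As for Tmem119, GW2580 2 and GW2580 3 alone exceeded every vehicle library. The log2 fold change was 0.50 ± 0.49 (SE), with a 95% interval from -0.54 to 1.55 (edgeR p = 0.316, adjusted 0.634, two-sided exact permutation p = 0.397), and it was 0.11 without GW2580 3.

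Fcrls encodes a scavenger receptor of the Fc receptor-like family. Its level was 1819, 1936, 2373, 2188 and 1140 CPM in vehicle 1 to 5 and 2192, 3025, 4979, 1402 and 1665 CPM in GW2580 1 to 5. Of the GW2580 libraries, 2 were above the vehicle range and the other 3 within it. The log2 fold change was 0.49 ± 0.45 (SE), with a 95% interval from -0.47 to 1.44 (edgeR p = 0.292, adjusted 0.615, two-sided exact permutation p = 0.365), and it was 0.13 without GW2580 3.

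Gpr34, a G-protein coupled receptor for lysophosphatidylserine, was at 1006, 1247, 1292, 1363 and 346 CPM in vehicle 1 to 5 and at 1178, 1324, 1945, 484 and 842 CPM in GW2580 1 to 5. The low libraries were vehicle 5 and GW2580 4, and only GW2580 3 lay above the vehicle range. Its log2 fold change of 0.14 (standard error 0.47, 95% interval -0.87 to 1.14) was the smallest of the 9 in size (edgeR p = 0.776, adjusted 0.911, two-sided exact permutation p = 0.778). The sign was not stable, as the value was -0.13 without GW2580 3 and -0.09 without vehicle 5.

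Slc2a5 encodes the fructose transporter GLUT5. It was the least abundant marker, with 429 to 2768 fragments per library, at 31.0, 41.4, 55.6, 58.1 and 29.2 CPM in vehicle 1 to 5 and at 67.1, 67.5, 153.8, 46.9 and 37.9 CPM in GW2580 1 to 5. The 3 libraries GW2580 1, GW2580 2 and GW2580 3 exceeded every vehicle library. The log2 fold change was the highest of the 9, 0.79 ± 0.40 (SE), with a 95% interval from -0.07 to 1.65 (edgeR p = 0.0679, adjusted 0.368, two-sided exact permutation p = 0.127). The edgeR p was 0.0144 with scaling by library size alone, 0.0424 without GW2580 4 and 0.0404 without GW2580 5, at fold changes under 2, and without GW2580 3 it was 0.288 at a log2 fold change of 0.35.

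Olfml3, a secreted glycoprotein with an olfactomedin domain, was at 721, 605, 916, 861 and 378 CPM in vehicle 1 to 5 and at 791, 961, 1719, 459 and 670 CPM in GW2580 1 to 5. Vehicle 5 and GW2580 4 were low, and GW2580 3 stood highest. The log2 fold change was 0.40 ± 0.42 (SE), with a 95% interval from -0.51 to 1.31 (edgeR p = 0.358, adjusted 0.666, two-sided exact permutation p = 0.429), and it was 0.05 without GW2580 3.

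Sparc encodes a secreted matricellular glycoprotein that binds collagen and calcium. It was at 5536, 8466, 9056, 9352 and 1882 CPM in vehicle 1 to 5 and at 2528, 6300, 5884, 1523 and 5313 CPM in GW2580 1 to 5. Vehicle 2 to 4 lay above every GW2580 library, and vehicle 5 lay below all GW2580 libraries but GW2580 4. The means were 6859 ± 3168 and 4310 ± 2144 CPM (SD, n = 5 each), and the log2 fold change was -0.67 ± 0.56 (SE), with a 95% interval from -1.87 to 0.53 (edgeR p = 0.251, adjusted 0.579, two-sided exact permutation p = 0.230).

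Crybb1 encodes beta-crystallin B1, a structural protein of the lens that microglia also transcribe. Its level was 460, 481, 854, 862 and 71.5 CPM in vehicle 1 to 5 and 86.3, 326, 397, 97.7 and 611.5 CPM in GW2580 1 to 5. Vehicle 1 to 4 all lay above GW2580 1 to 4, whereas vehicle 5 was the lowest of the 10 libraries and GW2580 5 was the highest of its group. The means were 546 ± 328 and 304 ± 220.1 CPM (SD, n = 5 each), and the log2 fold change was -0.84 ± 0.65 (SE), with a 95% interval from -2.23 to 0.54 (edgeR p = 0.212, adjusted 0.544, two-sided exact permutation p = 0.302). With each library left out in turn, it ranged from -1.36 without GW2580 5 to -0.60 without GW2580 1.

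Ltc4s encodes leukotriene C4 synthase, which joins glutathione to leukotriene A4. It was at 1102, 884, 1237, 1291 and 174 CPM in vehicle 1 to 5 and at 132, 502.5, 425, 111 and 2291 CPM in GW2580 1 to 5. The same order recurred, with vehicle 1 to 4 above GW2580 1 to 4, vehicle 5 low and GW2580 5 the highest of all. The log2 fold change of the fitted model, which weighs the high count of GW2580 5, was -0.44 ± 0.76 (SE), with a 95% interval from -2.07 to 1.19 (edgeR p = 0.574, adjusted 0.807, two-sided exact permutation p = 0.278). Without GW2580 5 it was -1.77 with an edgeR p of 0.0159 (adjusted 0.144), and Ltc4s was then the 1 marker called lower, in a fit that called 13.2% of all genes lower.

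**Figure D3:**
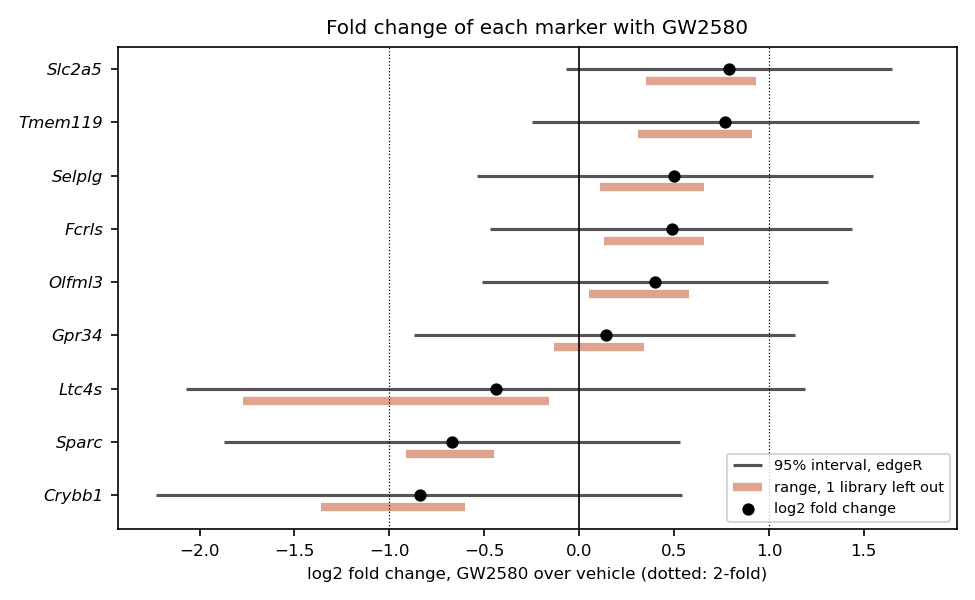
Log2 fold change of GW2580 over vehicle for each marker (points) with the 95% interval of edgeR's quasi-likelihood fit (lines, n = 5 per group) and the range when each library was left out in turn (bars), dotted lines marking 2-fold. All 9 intervals include 0, and the bar of Ltc4s reaches from -1.77 to -0.16.

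The libraries labelled vehicle 5 and GW2580 5 bore on the markers unequally. With both left out, a choice made after their values were seen and therefore given with no test, the difference of mean log2 CPM went from -1.05 to -2.24 for Ltc4s, from -0.82 to -1.80 for Crybb1 and from -0.66 to -1.20 for Sparc. For Tmem119 it went from 0.61 to 0.68, for Slc2a5 from 0.67 to 0.74, for Selplg from 0.37 to 0.36 and for Fcrls from 0.38 to 0.34. For Olfml3 it went from 0.33 to 0.20 and for Gpr34 from 0.14 to -0.15. The means of the 4 remaining libraries per group were 1128 and 292.5 CPM for Ltc4s, 664 and 227 CPM for Crybb1, 8103 and 4059 CPM for Sparc and 3663 and 6560 CPM for Tmem119, vehicle first.

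The same libraries stood out when the markers were read against Tmem119 within each library, a measure that no scaling between libraries can move. For every 100 fragments on Tmem119, Crybb1 had 15.1, 14.7, 20.9, 20.2 and 2.64 in vehicle 1 to 5 and 2.05, 5.58, 3.19, 2.62 and 18.0 in GW2580 1 to 5. Sparc had 182, 259, 222, 219 and 69.4 with vehicle and 60.1, 108, 47.3, 40.8 and 156 with GW2580. Ltc4s had a median of 30.3 per 100 with vehicle (6.44 to 36.3) and of 3.41 with GW2580 (2.97 to 67.3). In all of these ratios vehicle 5 fell among GW2580 1 to 4, and GW2580 5 lay above GW2580 1 to 4, within the range of vehicle 1 to 4 for Crybb1, below it for Sparc and above it for Ltc4s. Selplg, the neighbour of Tmem119 on the genome, moved much less against it, at 146 ± 9.18 per 100 with vehicle (132 to 154) and 124 ± 15.3 with GW2580 (109 to 142). These ratios were chosen after the values were seen and are given as a description.

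**Figure D4:**
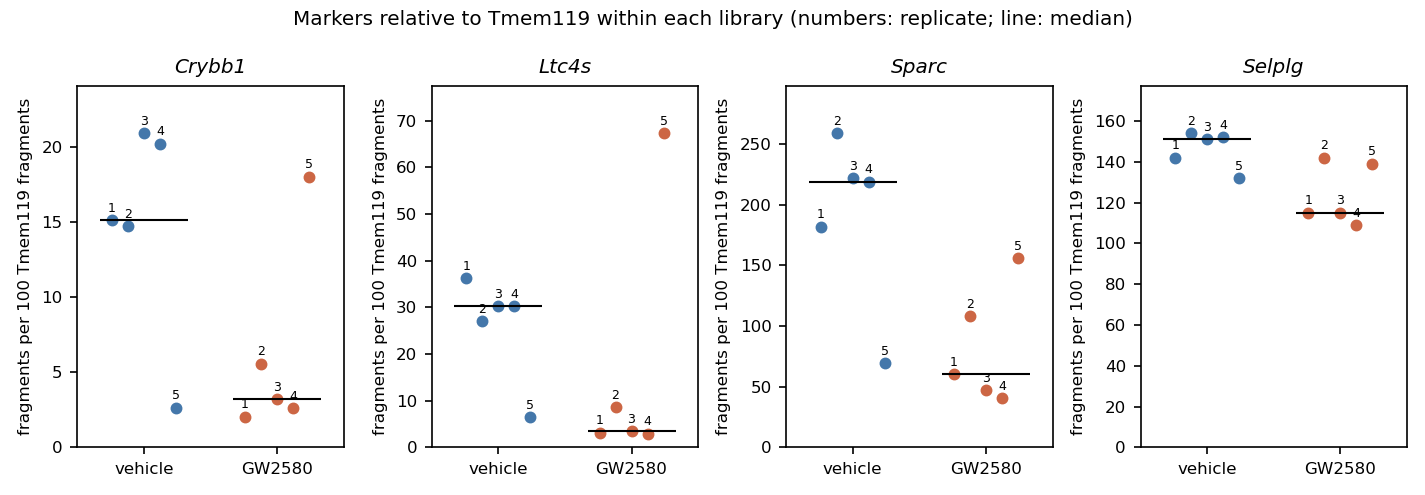
Fragments of Crybb1, Ltc4s, Sparc and Selplg per 100 fragments of Tmem119 in each library, with points numbered by replicate and a line at the group median (5 libraries per group). Vehicle 5 lies apart from the other vehicle libraries for Crybb1, Ltc4s and Sparc, and GW2580 5 apart from the other GW2580 libraries for Crybb1 and Ltc4s.

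Within the groups the markers varied together to different degrees. Pearson's r of log2 CPM, with group means removed, was computed for the 36 pairs over 10 libraries, and 24 pairs had an adjusted permutation p under 0.05 (23 by Spearman's rho). The share of other gene pairs that would pass was not computed, so these counts do not set the markers apart from other genes. A factor that scales a whole library moves all markers at once, and with scaling by library size alone 18 pairs passed (12 by rho) and with median-of-ratios factors 23 (23 by rho). The permutations shuffled the centred values over all 10 libraries and not within groups. Spread differed between the groups (SD of Tmem119 19.4% of its mean with vehicle and 63.5% with GW2580), so the permutation p-values are approximate. The highest values were 0.97 for Tmem119 with Selplg (permutation p = 1e-05, adjusted 0.00012, the smallest that 100000 permutations can give, rho 0.95) and 0.97 for Fcrls with Olfml3 (same p, rho 0.95). Without the 2 libraries farthest from the median these were 0.99 and 0.93. Crybb1 and Ltc4s gave r = 0.93 (permutation p = 7e-05, adjusted 0.00036, rho 0.88 with permutation p = 0.00147, adjusted 0.00331), and 0.89 without GW2580 1 and vehicle 5. Sparc gave 0.93 with Crybb1 (permutation p = 0.00075, adjusted 0.00208) and 0.85 without the 2 libraries farthest for Sparc.

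Tmem119 and Ltc4s, in contrast, gave r = 0.15 (permutation p = 0.676, adjusted 0.695, rho 0.22), and this rested on GW2580 3 and GW2580 5, without which r was 0.86. Slc2a5 and Ltc4s gave the lowest r of the 36, 0.06 (permutation p = 0.857). The r of Gpr34 with Ltc4s changed sign, from 0.53 (permutation p = 0.115) to -0.43 without GW2580 4 and vehicle 5, the libraries farthest for Gpr34. When the matrix was read in 2 blocks chosen after the values were seen, r ranged from 0.71 to 0.97 over the 15 pairs among Tmem119, Fcrls, Olfml3, Slc2a5, Gpr34 and Selplg, from 0.83 to 0.93 over the 3 pairs among Sparc, Crybb1 and Ltc4s, and from 0.06 to 0.88 over the 18 pairs between the blocks. Without the 2 libraries farthest for the first gene of each pair the ranges were 0.75 to 0.99, 0.58 to 0.89 and -0.43 to 0.89. These ranges overlapped, with Tmem119 and Sparc going from 0.54 to 0.89. Sparc with Ltc4s passed by Pearson's r (permutation p = 0.00305, adjusted 0.00704) but not by rho (0.59, adjusted permutation p = 0.121).

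**Figure D5:**
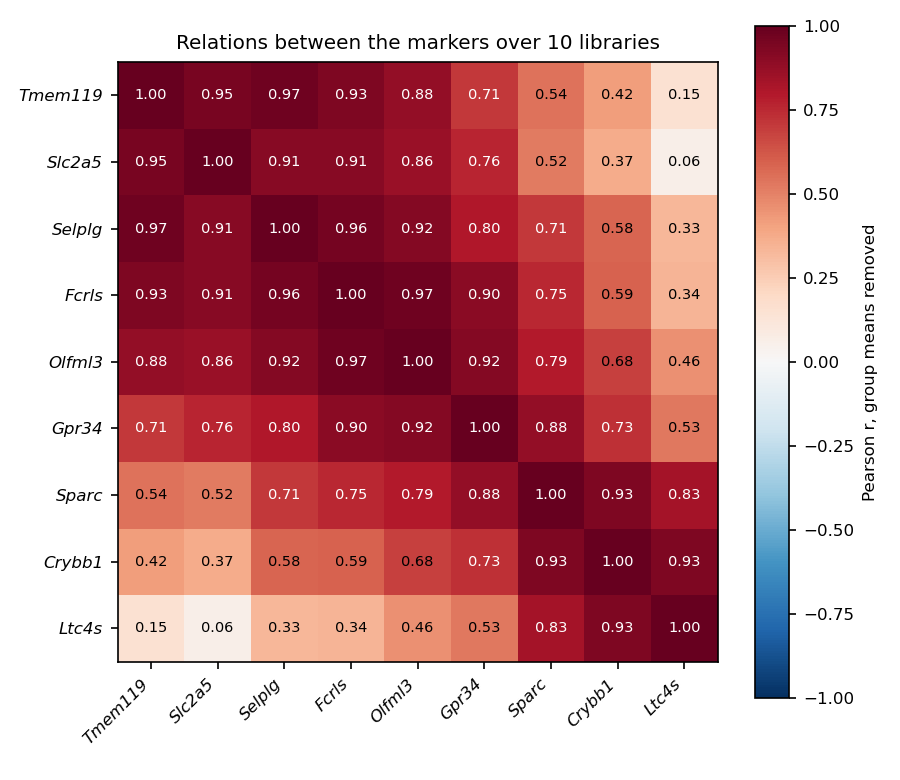
Pearson's r of log2 CPM between the 9 markers over 10 libraries after removal of the group means (colour and number, scale from -1 to 1). The corner of Sparc, Crybb1 and Ltc4s holds r of 0.83 to 0.93, and Ltc4s has its lowest r with Slc2a5 (0.06) and Tmem119 (0.15).

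No difference between the sexes was detectable for any marker. In the vehicle group Tmem119 averaged 3150 CPM in 2 males and 3690 in 3 females, Sparc 7000 and 6760, and Crybb1 471 and 596. The edgeR p for sex, with treatment in the model, lay between 0.402 (Crybb1) and 0.954 (Fcrls), and 0 of 9 markers were under 0.05 against 2.02% of all genes. The p for the interaction of sex and treatment lay between 0.303 (Ltc4s, -1.71 with a standard error of 1.59, males minus females) and 0.999 (Olfml3), with 0 of 9 under 0.05 against 2.52% of all genes. Its standard errors, from 0.89 for Slc2a5 to 1.59 for Ltc4s, leave differences of more than 2-fold between the sexes within the error.

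Among other genes of the homeostatic program, some passed the same thresholds. Of a list of 48, which holds none of the 9 markers, 46 were tested, 8 were called higher and 0 lower (against 4.01% and 6.70% of all genes), and 33 had a positive fold change, with a median log2 fold change of 0.34. Slco2b1, an organic anion transporter, was at 551 ± 200.4 CPM in vehicle and 1420 ± 974 CPM in GW2580 libraries (SD, n = 5 each), a log2 fold change of 1.36 (edgeR p = 0.0163, adjusted 0.280, exact permutation p = 0.0714). Pros1, which encodes protein S, a ligand of the TAM receptors, had 1.10 (edgeR p = 0.0196, adjusted 0.281, exact permutation p = 0.0556). At the other end, the complement genes C1qb and C1qc had log2 fold changes of -0.88 and -0.80 and Cst3, which encodes cystatin C, of -0.94, with edgeR p-values of 0.185, 0.221 and 0.241 and exact permutation p-values of 0.254, 0.238 and 0.222. The number called higher was 3, 2, 5 and 4 without vehicle 1, 2, 3 and 4 in turn, 0 without GW2580 3, 10 without GW2580 2 and 11 without GW2580 5, while 2.15 to 6.18% of all genes were called higher when each library was left out. It was 12 with scaling by library size alone (7.47% of all genes) and 12 with the share of fragments outside annotated exons as a term (2.48%). The replicate number as a block gave 0 (3.71%), limma-voom 2 (4.95%) and DESeq2 8 (4.22%). Without vehicle 2 and vehicle 5 the number was 5 (5.09%).

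Of 24 genes that rise when microglia are activated, 22 were tested, 0 were called higher and 3 lower (against 4.01% and 6.70% of all genes), with a median log2 fold change of -0.45. Those called lower were Fth1, the heavy chain of ferritin, at a log2 fold change of -1.76 (edgeR p = 0.0113, adjusted 0.280, exact permutation p = 0.0238), the tetraspanin gene Cd63 at -1.34 (edgeR p = 0.0177, adjusted 0.280, exact permutation p = 0.0238) and Cst7, a cystatin, at -1.08 (edgeR p = 0.0392, adjusted 0.318, exact permutation p = 0.103). Csf1, which encodes a ligand of CSF1R, had a log2 fold change of 0.70 (edgeR p = 0.0463, adjusted 0.334, exact permutation p = 0.0556), under the fold threshold, and Axl and Igf1 had 0.50 and 0.27 with edgeR p-values of 0.205 and 0.372 and exact permutation p-values of 0.381 and 0.214. The number called lower ranged from 2 to 7 when each library was left out, with 7 without vehicle 5, 5 without GW2580 2 and 6 without GW2580 5, while 3.92 to 13.2% of all genes were called lower. It was 6 by DESeq2 (7.48% of all genes), 5 by limma-voom (5.66%), 6 with glial and neuronal markers as a term (3.31%) and 0 with the share of fragments outside annotated exons as a term (1.67%). Without vehicle 2 and vehicle 5 the number was 7 (3.42%).

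Astrocyte, oligodendrocyte and neuronal markers were highest in vehicle 2 and vehicle 5, and the calls of lower genes among them were not made without those libraries. Astrocyte genes summed to 265, 4170, 270, 297 and 6230 CPM in vehicle 1 to 5 and to between 282 and 892 CPM with GW2580, so vehicle 2 and vehicle 5 alone were high and the vehicle median lay below that with GW2580 (297 and 342 CPM). Vehicle 2 and vehicle 5 were also highest for oligodendrocyte genes (medians 364 and 618 CPM, vehicle 2 at 18000 and vehicle 5 at 4500). For neuronal genes (medians 96.6 and 106 CPM) vehicle 2 was at 708 and vehicle 5 at 283, with GW2580 4 close to it at 242. Of 14 astrocyte genes tested 6 were called lower with GW2580 and 0 higher, but without vehicle 2 and vehicle 5 the counts were 0 and 4. Those libraries were left out because such markers were high in them. The change in counts follows from that choice and is no test of a difference between groups. Over all genes the shares called lower and higher went from 6.70% and 4.01% to 3.42% and 5.09% (938 and 1397 genes), so the whole table moved the same way. For 13 oligodendrocyte genes 6 lower and 0 higher became 0 and 5, and for 15 neuronal genes 4 and 0 became 0 and 4, with the same limit. With the replicate block 0 astrocyte, 3 oligodendrocyte and 1 neuronal genes were called lower (1499 of all 28419 genes). With the share of fragments outside annotated exons as a term 0 were called lower in each of these lists (1.67% of all genes). Of the 2 most abundant neuronal genes, Snap25, which encodes a synaptic SNARE protein, had a log2 fold change of -1.63 (edgeR p = 0.066, adjusted 0.365, exact permutation p = 0.690). Without vehicle 2 and vehicle 5 it was 1.01, given with no test because those libraries were chosen on such markers. Rbfox3, which encodes the neuronal nuclear protein NeuN, had -1.12 (edgeR p = 0.0315, adjusted 0.304, exact permutation p = 0.0794), with 3 GW2580 libraries below every vehicle library. Its value without vehicle 2 and vehicle 5 was -0.38, likewise given with no test.

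Choroid plexus and ependyma genes summed to 1510, 3000, 1770, 1240 and 28000 CPM in vehicle 1 to 5 and to 338, 1280, 810, 197 and 3560 CPM in GW2580 1 to 5, lower in 3 GW2580 libraries than in any vehicle library. Of 9 tested, 8 were called lower and 0 higher, and 1 and 1 without vehicle 2 and vehicle 5. Of 12 lymphocyte genes 6 were called lower (sums 139 to 562 and 58.3 to 182 CPM), and 2 lower and 1 higher without those libraries. Of 10 mast cell genes 4 were lower and 1 higher (51.7 to 306 and 37.2 to 190.0 CPM), and 0 and 2 without them. For these lists in turn, 3, 3 and 2 genes were called lower with the replicate block (1499 of all 28419 genes). With the share of fragments outside annotated exons as a term these counts were 1, 0 and 0 (1.67% of all genes). The limit given above for the fits without vehicle 2 and vehicle 5 holds here too.

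Monocyte and granulocyte genes, which CD11b beads can bring along, summed to 1080 to 29200 CPM with vehicle, highest in vehicle 1, and to 1300 to 13100 with GW2580, and 1 of 15 was called lower (3 without vehicle 2 and vehicle 5). Genes of border macrophages, cells akin to microglia, were at 318 to 447 and 276 to 844 CPM, with 1 of 11 called higher. Without vehicle 2 and vehicle 5 these were 2 higher and 1 lower. With the share of fragments outside annotated exons as a term 4 were called higher (2.48% of all genes), and with the replicate block 0 (3.71%). No call was made on the 15 endothelial and mural genes tested (141 to 336 and 141 to 214 CPM). Cldn5, the other gene of that list, had 0 counts in all libraries. Early response genes that rise on dissociation summed to 31300 to 49500 CPM with vehicle and 27700 to 90300 with GW2580, highest in GW2580 3. That library had the lowest TMM factor, 0.691, which raises the CPM of every gene in it, and 6 of the 9 markers had their highest GW2580 level there. Without TMM factors Tmem119, Fcrls, Olfml3, Slc2a5 and Selplg stayed highest there, and Gpr34 was highest in GW2580 1 (1445 CPM against 1342 in GW2580 3). With the mean level of the neuronal, astrocyte and oligodendrocyte markers as a term in the model, the log2 fold changes were 0.63 for Tmem119 and Slc2a5, 0.35 for Selplg, 0.32 for Fcrls, 0.18 for Olfml3, -0.07 for Gpr34, -0.84 for Ltc4s, -0.89 for Sparc and -1.18 for Crybb1, with 0 of 9 under an edgeR p of 0.05. The part of the other cell types and of dissociation in the marker levels was not tested.

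The genes whose levels followed the markers most closely were sought among 3491 genes of at least 50 CPM, by Pearson's r of log2 CPM over the 10 libraries. All genes of a library share its depth and its scaling factor, which moves them together. Against the mean profile of the 9 markers high values were those of Sting1 at 0.989, Grap at 0.987, St3gal6 at 0.979 and Tmem204 at 0.977. For single markers the genes of highest r were Nagpa for Tmem119 (0.979), Gna15 for Selplg (0.991), Rab3il1 for Fcrls (0.992), P2ry12 for Gpr34 (0.992), P2ry13 for Slc2a5 (0.969), Hexa for Olfml3 (0.974), Inka1 for Sparc (0.992), Stambpl1 for Crybb1 (0.984) and Smap1 for Ltc4s (0.988). P2ry12, a receptor for ADP that is itself a microglial marker, was at 3880 CPM with vehicle and 4070 with GW2580 and had a log2 fold change of 0.07, near the 0.14 of Gpr34, and neither was called. Inka1, the gene most like Sparc in profile, had a log2 fold change of -0.92 and was not called.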

How the data were processed

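RNA of CD11b-selected microglia was sequenced from 5 vehicle and 5 GW2580 mice, after amplification of full-length cDNA with a SMART-Seq kit. The authors aligned the read pairs with STAR and counted uniquely aligned fragments on the exons of RefSeq genes of GRCm38 without regard to strand. They deposited these counts with no normalization, with the length of each gene in bases, and the file headers name featureCounts 1.6.3. The share of records on no annotated exon was 43.5 ± 4.26% in vehicle and 50.4 ± 8.49% in GW2580 libraries (SD, n = 5 each). Symbols came from the RefSeq gene table (46029 of 46152 genes), and promoter sequences from its GRCm38.p6 set.

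Genes that exceeded 1 CPM in 3 or more libraries (28419) were scaled by TMM and tested with edgeR 4.0.16 in R 4.3.3, by the quasi-likelihood F test, two-sided, with treatment as the only term. Adjusted p-values are Benjamini-Hochberg over all genes tested. Standard errors are the log2 fold change divided by the square root of F. Single genes were also tested by exact permutation over the 252 arrangements of the libraries on log2 CPM (prior count 2), whose smallest p is 0.00794. Correlations, with 100000 permutations, used scipy 1.17.1, numpy 2.4.6 and pandas 2.3.3 under Python 3.11.15, and plots matplotlib 3.10.9. The edgeR code was checked on simulated counts with 200 changed genes.

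Alternatives were DESeq2 1.42.0, limma-voom (limma 3.58.1), other filters and scalings, the replicate number, sex, the percentage on no annotated exon and glial and neuronal markers as terms, and leaving out libraries. The relations under other scalings, the counts of the gene lists and the values of 2 neuronal genes under alternatives and without vehicle 2 and vehicle 5, the order of levels within libraries, the GW2580 libraries above the vehicle range without TMM and the values without vehicle 5 and GW2580 5 were added after seeing the data. The members and lists were chosen with earlier results of these data known. Genes named are the 9 markers, the 3 of smallest p in each direction in the homeostatic and activation lists, and those of highest r with the markers. Some genes that the rule names are not reported here singly and stay in all counts. The rule also names the 2 most abundant genes of each list of other cell types, which are given here as sums apart from those of neurons. Each library is 1 mouse. The reads carry no molecular identifiers, so counting intervals understate the error.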

Additional observations from a re-analysis of the deposited data

Results flagged for a closer look

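In 3 of the 18 sets of 5 libraries examined (9 markers in 2 groups), 1 library lay apart from the rest, with a gap to its nearest neighbour of more than 0.71 of the range in log2 CPM, a value that chance passes in about 1 in 20 sets. All were vehicle 5. Gpr34 was at 346 CPM there and at 1006 CPM in the next lowest vehicle library (0.778 of the range). Crybb1 was at 71.5 CPM against 460.3 CPM in the next (0.748), and Ltc4s at 174 CPM against 884.1 CPM (0.811). The 3 sets share that library and are not independent.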

How the results depend on the processing

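Of 207 fold changes of single markers under the alternatives, 195 kept their direction and their side of an unadjusted p of 0.05, 7 passed it and 5 turned. Gpr34 turned to -0.07 with glial and neuronal markers as a term, to -0.09 without vehicle 5, to -0.13 without GW2580 3 and to -0.09 without vehicle 2 and vehicle 5, and Ltc4s to 0.06 without GW2580 3 and GW2580 4. Tmem119 passed with scaling by library size alone (0.85) and with the percentage on no annotated exon as a term (0.98), as did Slc2a5 (0.88 and 0.96). The number of markers called higher was 0 under each alternative, and that called lower ranged from 0 to 1 when each library was left out. The number of all genes called higher (1141) was 2123 with library size alone, 705 with the percentage on no annotated exon as a term, 470 without GW2580 3 and GW2580 4, and from 597 to 1739 when each library was left out. That called lower (1905) was 875 with library size alone, 3120 without a filter, 940 with glial and neuronal markers as a term, 476 with the percentage on no annotated exon as a term, 938 without vehicle 2 and vehicle 5, 715 without GW2580 3 and GW2580 4, and from 1087 to 3637 when each library was left out. The cause was not tested. Fits with fewer libraries have less power by construction, and counts rose in some of them and fell in others. Depth is no limit for the 9 markers, whose lowest count was 429 (Slc2a5).

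The replicate numbers were not taken to pair the samples, since the correlations of same-numbered libraries after removal of group means were -0.0548, 0.389, 0.0898, -0.440 and -0.566, and only replicate 2 correlated best with its own number. With the replicate block the log2 fold changes were 0.61 for Tmem119, 0.38 for Fcrls, 0.34 for Olfml3, -0.68 for Sparc, 0.67 for Slc2a5, 0.16 for Gpr34, 0.37 for Selplg, -1.06 for Crybb1 and -1.45 for Ltc4s, with 0 of 9 called, and 1055 genes were called higher and 1499 lower, with 0 of the homeostatic list called higher (8 without the block).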
